A study of Mus musculus with 12 samples.

Results

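The enzymes that carry lanosterol, the first sterol ring compound of the pathway, to cholesterol were followed across mouse embryonic fibroblasts given the kinase inhibitor AMN107, an interferon, or both. The set was chosen by name and holds 7 genes in pathway order: Cyp51, Msmo1, Nsdhl, Hsd17b7, Ebp, Sc5d and Dhcr7. They were read by 15 probe sets, of 45037 probe sets that are not array controls and of 18193 genes with a probe set of their own. All 15 carried 1 gene in the array's annotation, and all 15 passed the filter on low signals (a signal that exceeded the median of its array on 2 or more of the 12), as 24363 probe sets did in all. Cyp51 and Sc5d had 3 probe sets each, Hsd17b7 4, Msmo1 2, and Nsdhl, Ebp and Dhcr7 1 each. The probe set with the highest mean signal, called the main one here, stands for its gene in counts of genes.

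RNA was hybridized to 12 Affymetrix arrays, 2 for each of 6 groups: DMSO, AMN107, and each interferon alone (IFNa, IFNg) or after the inhibitor (AMN107-IFNa, AMN107-IFNg). AMN107, or nilotinib, blocks the ABL tyrosine kinases, and DMSO is the solvent used as its control. The inhibitor came first and the interferon was then present for 6 h, and the series asks how ABL inhibition alters the interferon response. The labels state neither how much AMN107 was used nor for how long, no strain, genotype or embryo of origin, and do not say whether the arrays with interferon alone also had DMSO. Arrays of a group are labelled as biological replicates without naming separate cultures, so the p-values measure the spread between these arrays, which may be technical. All groups share the serum-supplemented medium.

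Cells make cholesterol from acetyl-CoA through mevalonate and squalene to lanosterol, and the enzymes described here then remove lanosterol's extra methyl groups, move and reduce its double bonds, and end at cholesterol in the membrane of the endoplasmic reticulum. Most genes of the route are targets of SREBP2, the transcription factor encoded by Srebf2, which is held in that membrane by SCAP and INSIG proteins while sterols are plentiful and is released to the nucleus when they fall. Interferons are known to lower sterol synthesis in macrophages, partly through the oxysterol made by the enzyme of Ch25h.

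The labelled cell type was checked on 8 fibroblast markers, of which 6 lay above the array median on all 12 arrays and Thy1 lay below it on all 12. The leukocyte markers Ptprc, Adgre1 and Itgam, the epithelial markers Cdh1 and Krt18 and the endothelial markers Pecam1 and Cdh5 lay below the array median on all 12 arrays. Other markers of these lists did not: Csf1r, Epcam and Kdr lay above it on all 12, Cd68 on 11, Krt8 on 9 and Lyz2 on 1, and of 3 hepatocyte markers Ttr lay above it on 12, Apoa1 on 11 and Alb on none. IFNa replicate 2 stands apart from the other arrays: its ratio of 5' to 3' signal was 0.0252 for GAPDH, against 1.074 to 1.16 on the other 11, and its log2 difference from replicate 1 had an SD of 0.40, against 0.12 to 0.14 within the other groups. Since all groups share 1 estimate of the spread per probe set, this array also widens the error of comparisons that do not use it. In these bulk samples fewer expressing cells and less RNA per cell cannot be told apart, and the number of arrays limits the precision.

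Promoter sequences of 4 of the enzymes are shown for the letters that the genes have in common. Each is the stretch of 250 bases before the transcription start, from RefSeq on GRCm38.p6, written 5' to 3' on the gene's own strand, with CCAAT boxes on either strand (CCAAT or ATTGG) in capitals. Cyp51 and Hsd17b7 are shown because their main probe sets were called lower under AMN107 and were not called higher with IFNg. Msmo1 and Nsdhl are shown because theirs were called lower under AMN107 and higher with IFNg.
Cyp51, chr5:4104698-4104947, minus strand: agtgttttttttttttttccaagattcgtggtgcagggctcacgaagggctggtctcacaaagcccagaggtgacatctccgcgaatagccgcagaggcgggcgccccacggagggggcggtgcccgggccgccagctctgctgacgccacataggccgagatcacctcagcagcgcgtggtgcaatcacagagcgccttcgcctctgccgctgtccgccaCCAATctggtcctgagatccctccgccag
Hsd17b7, chr1:169969206-169969455, minus strand: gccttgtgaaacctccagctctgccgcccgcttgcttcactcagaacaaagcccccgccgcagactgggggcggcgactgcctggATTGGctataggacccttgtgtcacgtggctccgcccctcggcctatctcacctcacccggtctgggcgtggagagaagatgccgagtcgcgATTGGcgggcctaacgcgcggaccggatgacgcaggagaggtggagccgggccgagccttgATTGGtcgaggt
Msmo1, chr8:64733579-64733828, minus strand: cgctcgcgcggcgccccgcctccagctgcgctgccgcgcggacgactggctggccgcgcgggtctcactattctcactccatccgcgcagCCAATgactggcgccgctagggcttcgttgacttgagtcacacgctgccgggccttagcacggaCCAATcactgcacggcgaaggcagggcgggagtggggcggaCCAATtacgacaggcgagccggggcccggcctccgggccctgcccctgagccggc
Nsdhl, chrX:72918271-72918520, plus strand: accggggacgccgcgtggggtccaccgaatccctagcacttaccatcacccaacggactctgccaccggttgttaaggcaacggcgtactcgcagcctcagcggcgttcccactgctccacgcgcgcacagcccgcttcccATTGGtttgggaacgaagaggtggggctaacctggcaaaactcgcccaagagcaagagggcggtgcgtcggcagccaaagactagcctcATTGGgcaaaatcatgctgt

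The CCAAT box, which the factor NF-Y is known to bind, was found before a start of 7 of 7 enzyme genes, against 37.5% of 27025 gene symbols with a promoter of this length, each counted if any of its starts has the box. Msmo1 and Hsd17b7 held 3 boxes each, Nsdhl and Ebp 2, and Cyp51 and Sc5d 1, and Dhcr7 held 2 before 1 of its 3 starts and none before the others. The GC box GGGCGG (or CCGCCC), known for binding Sp1, was also found in 7 of 7 genes, against 35.4% of gene symbols. The sterol regulatory element written as TCACNCCAC was found on neither strand in any of the 7, and for 1.22% of gene symbols. A variant, TCACCTCA, chosen after these sequences were seen, lay 88 bases before the start of Cyp51 and 117 bases before that of Hsd17b7, and was found for 1.12% of gene symbols. The E-box CACGTG was found in 3 of 7 genes (Hsd17b7, Sc5d and Dhcr7), against 6.86% of gene symbols. These counts describe letters in these windows and say nothing of binding.

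Without interferon, AMN107 lowered 5 of the 7 enzymes: Cyp51, Hsd17b7 and Dhcr7 by 2.04-fold to 2.47-fold, and Msmo1 and Nsdhl by 1.58-fold and 1.4-fold. Of all 12192 genes tested, 13% were called lower in this comparison. With IFNa present 6 of 7 were lower (13.7% of all genes), with IFNg 6 of 7 (4.79%), and on average over the 3 interferon states 6 of 7 (21%). Ebp was the one enzyme not called, and Sc5d was not called without interferon. Leaving out any 1 of the 4 DMSO or AMN107 arrays left 3 called without interferon (Cyp51, Hsd17b7 and Dhcr7), and Msmo1 and Nsdhl lost their calls there. Fitting only the groups compared left 1 called with IFNa, Cyp51. A call is an adjusted p under 0.05 in limma's moderated test, adjusted by Benjamini-Hochberg over the 24363 probe sets, and folds are ratios of signal + 8.66. The members' median log2 difference was -0.66 without interferon, -1.37 with IFNa and -1.14 with IFNg, where the medians of all tested genes were 0.02, -0.01 and 0.01. Counted by probe set, 8 of 15 were lower without interferon (12.4% of all probe sets), 12 with IFNa (12.9%) and 13 with IFNg (4.41%).

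**Figure D1:**
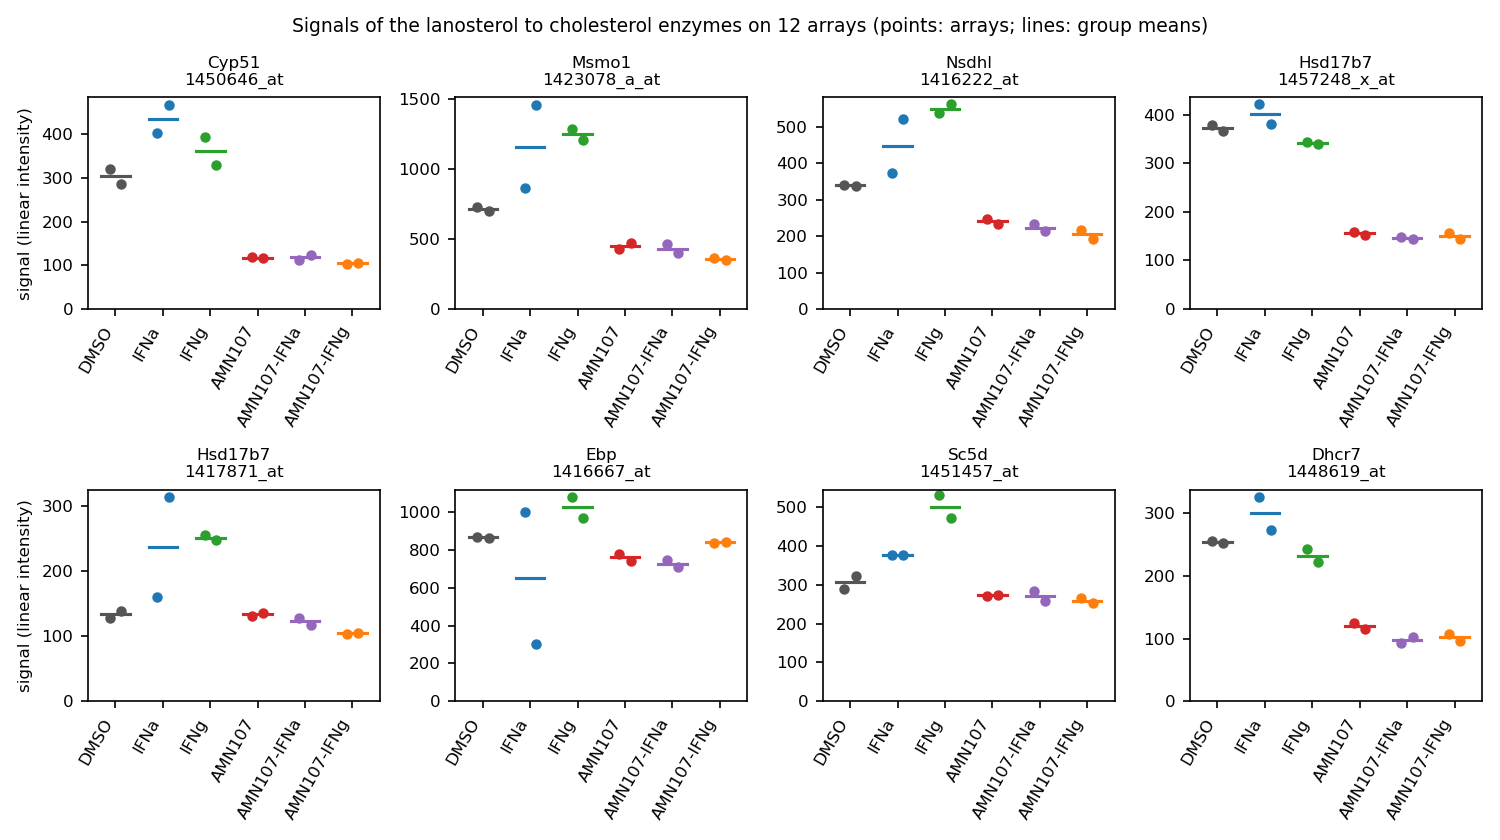
Linear signal on each of the 12 arrays for the main probe set of the 7 enzymes and for a second Hsd17b7 probe set, 1417871_at; each point is 1 array, each line the mean of 2. Cyp51, Hsd17b7 (1457248_x_at) and Dhcr7 sit at or below 159 on all 6 AMN107 arrays and at or above 222 on the other 6, and Ebp's lowest point, 306, is IFNa replicate 2.

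Cyp51, which removes the first of lanosterol's extra methyl groups, had the largest average fall of the 7. Its signal (1450646_at) was 321 and 287 on the DMSO arrays, 403 and 466 with IFNa and 394 and 329 with IFNg. On the AMN107 arrays it was 119 and 116 without interferon, 112 and 125 with IFNa and 104 and 106 with IFNg. The 6 arrays with the inhibitor and the 6 without it did not overlap, and the arrays with it lay close together whichever interferon was present. The log2 difference was -1.31 (SE 0.118, limma adjusted p = 6.16e-05) without interferon, -1.80 under IFNa and -1.70 under IFNg. Its 2 dimmer probe sets were lower in all 3 states too. Probe set 1422533_at read 204 and 218 with DMSO against 53.3 and 66.2 with AMN107, a log2 difference of -1.69. Probe set 1422534_at read 25.9 and 25.3 against 14.2 and 17.9, near the array medians of 20.6 to 22.8, with a log2 difference of -0.47.

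Msmo1 oxidises the methyl groups on the sterol's A ring, the start of their removal. Its main probe set (1423078_a_at) gave 729 and 701 with DMSO, 864 and 1458 with IFNa and 1289 and 1207 with IFNg. With AMN107 it gave 426 and 471 without interferon, 466 and 398 with IFNa and 362 and 353 with IFNg. All arrays with the inhibitor lay below all arrays without it, and the gap was widest under IFNg, where the log2 difference was -1.78 (SE 0.192, limma adjusted p = 0.000353), against -0.66 without interferon and -1.37 with IFNa. The other Msmo1 probe set, 1459627_at, was dim (15.9 to 31.5 over the 12 arrays, with 8 above the array median) and was called in no comparison; without interferon its log2 difference was 0.35 (limma adjusted p = 0.0981).

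Nsdhl then removes the oxidised carbon as carbon dioxide. Its signal was 341 and 337 with DMSO, 372 and 520 with IFNa and 537 and 562 with IFNg, and 248 and 233, 232 and 215, and 218 and 193 on the matching AMN107 arrays. As for Msmo1, no array with the inhibitor reached the lowest array without it. The log2 difference was -0.48 (SE 0.14, limma adjusted p = 0.0259) without interferon, -0.95 with IFNa and -1.38 with IFNg.

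Hsd17b7 reduces the ketone that is left at the same ring, and its probe sets did not give 1 answer. The main one, 1457248_x_at, whose _x suffix marks probes that may also match other transcripts, read 380 and 367 with DMSO, 422 and 381 with IFNa and 343 and 340 with IFNg. It read 143 to 159 on all 6 AMN107 arrays, with log2 differences of -1.21 (SE 0.0911, limma adjusted p = 2.23e-05), -1.41 and -1.14 in the 3 states. Probe set 1417871_at read 128 and 139 with DMSO and 130 and 136 with AMN107, a log2 difference of 0.00 (95% interval -0.51 to 0.50), so that its groups overlapped without interferon. It read 255 and 247 with IFNg against 103 and 105 with AMN107-IFNg, a log2 difference of -1.20 (SE 0.227, limma adjusted p = 0.00652), which passed the test as did -0.83 with IFNa.

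The other Hsd17b7 probe sets lay between these patterns. Probe set 1448865_at was 82 and 99.8 with DMSO and 70 and 52.5 with AMN107 (log2 -0.52, limma adjusted p = 0.17) and was called lower with IFNa and with IFNg. Probe set 1440057_at was dim, at 10.3 to 29.5, and was called lower in all 3 states, at log2 -0.57 to -0.68. All 4 probe sets were called lower on average over the 3 states. Across the 12 arrays 1457248_x_at followed Dhcr7 most closely of the other enzymes (Pearson r 0.99 on the log2 scale), while 1417871_at followed Msmo1 (0.938) and Nsdhl (0.923) more than Dhcr7 (0.663). These are descriptions over arrays that share their groups. Signals of different probe sets are not compared as levels.

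Ebp, which moves a double bond within the sterol rings, read 872 and 866 with DMSO and 779 and 745 with AMN107. It read 1082 and 972 with IFNg against 841 and 843 with AMN107-IFNg, and the arrays with the inhibitor were lower in both pairs. The IFNa arrays read 1003 and 306, the second being the array with the low 5' to 3' ratio, against 748 and 710 with AMN107-IFNa. The log2 differences were -0.19 (SE 0.384, limma adjusted p = 0.73) without interferon, 0.39 with IFNa and -0.28 with IFNg, with none called. Without IFNa replicate 2 the differences were -0.19, -0.45 and -0.28 with limma adjusted p = 0.0201, 0.00042 and 0.00297, so all 3 passed. Without IFNa replicate 1 instead, the difference with IFNa was 1.23 and passed as higher, so with IFNa the direction for Ebp rests on which of these arrays is used. Without interferon and with IFNg it was called lower whichever of the IFNa arrays was left out.

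Sc5d introduces a double bond into the B ring and so makes the substrate of Dhcr7. Its main probe set (1451457_at) read 290 and 323 with DMSO, 378 and 377 with IFNa and 531 and 472 with IFNg. On the AMN107 arrays it read 272 and 275, 283 and 259, and 266 and 253. Every array with the inhibitor lay below every array without it, but without interferon the log2 difference of -0.16 (95% interval -0.38 to 0.06, limma adjusted p = 0.238) did not pass the test. It was -0.47 (limma adjusted p = 0.00779) with IFNa and -0.93 (limma adjusted p = 0.00031) with IFNg. Probe set 1434520_at gave log2 -0.31, -1.09 and -0.71 in the same order, and 1424709_at -0.23, -0.18 and -0.35, called in both interferon states for the former and with IFNg for the latter.

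Dhcr7 reduces the last extra double bond and is mutated in Smith-Lemli-Opitz syndrome. Its signal was 255 and 252 with DMSO, 326 and 274 with IFNa and 242 and 222 with IFNg. With AMN107 it was 124 and 116, 93.5 and 103, and 108 and 96.7. The 2 sets of arrays did not overlap in any state, and the log2 differences were -1.03 (SE 0.111, limma adjusted p = 0.000176), -1.52 and -1.12.

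**Figure D2:**
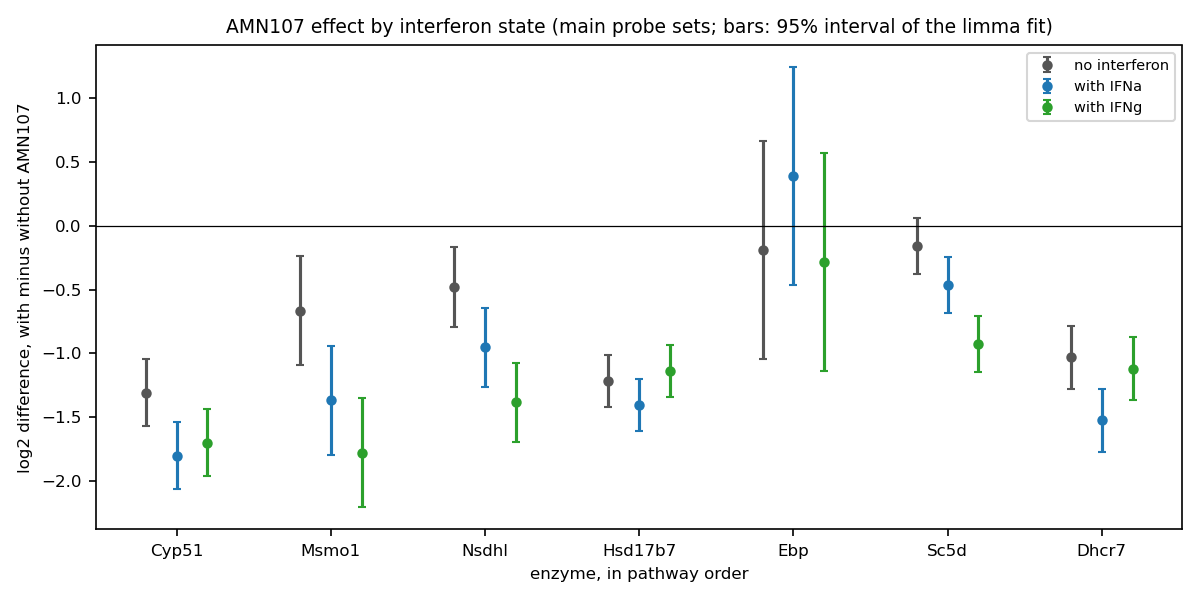
Log2 difference with minus without AMN107 (vertical axis) for the main probe set of each enzyme in pathway order, with no interferon, IFNa or IFNg; bars are 95% intervals of the limma fit with 2 arrays a group. Cyp51, Hsd17b7 and Dhcr7 lie at -1.03 or below in all 3 states, Msmo1, Nsdhl and Sc5d lie lowest with IFNg, and the bars of Ebp cross 0.

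Some measures of the arrays moved with the inhibitor. The GAPDH 5' to 3' ratio was 1.12 to 1.16 on the 6 AMN107 arrays and 1.074 to 1.098 on the others apart from IFNa replicate 2. The LysX spike, an RNA added before labelling, read 59.6 and 66.2 by its 3' probe set on the DMSO arrays and 37.6 to 38.9 on the AMN107 arrays. Its dimmer middle probe set was lower too (11.8 and 10.4 against 9.17 and 9.75). Its dimmer 5' probe set overlapped (6.79 and 7.49 against 6.26 and 7.73). The 3' probe set read 81.1 and 45.4 with IFNa and 36.1 and 36.7 with AMN107-IFNa, without overlap, while the middle and 5' ones overlapped. Between IFNg (36.1 and 40.6) and AMN107-IFNg (40 and 41.4) the 3' probe set overlapped, as did the middle one. The 5' one was higher with the inhibitor there (5.55 and 5.6 against 8.21 and 6.5). The summed signal of the 8 fibroblast markers was 8933 to 9012 with DMSO and 7060 to 7093 with AMN107, and that of the 4 epithelial markers 141.6 to 142.3 and 80.1 to 93.6. On average over the 3 states the fibroblast markers did not move as one. S100a4, Pdgfrb, Col1a2 and Col1a1 were called lower, at -1.26, -1.04, -0.28 and -0.23 on the log2 scale. Fn1 rose by 0.62 (limma adjusted p = 0.00192), and Vim, at 0.12, and Pdgfra, at -0.05, were not called. Their part in the enzymes' change was not tested.

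IFNg alone raised Msmo1, Nsdhl and Sc5d by their main probe sets, 3 of the 7 enzymes, where 5.73% of all genes were called higher. The log2 differences from DMSO were 0.80 (SE 0.192, limma adjusted p = 0.0301) for Msmo1, 0.68 (SE 0.14, limma adjusted p = 0.0151) for Nsdhl and 0.70 (SE 0.098, limma adjusted p = 0.00189) for Sc5d. Both IFNg arrays lay above both DMSO arrays for each, as they also did for Cyp51 and Ebp, which were not called. The share of all genes that separate in this way was not computed, so the separation adds nothing to the calls. Hsd17b7 probe set 1417871_at was called higher too, at 0.87 (limma adjusted p = 0.0417). Cyp51 was at 0.24 (95% interval -0.02 to 0.50), Ebp at 0.24, and Hsd17b7 by its main probe set and Dhcr7 at -0.12 and -0.13, none called. Other probe sets of Sc5d did not share its rise: 1434520_at was at 0.06 (95% interval -0.33 to 0.44) and 1424709_at at -0.09 (95% interval -0.30 to 0.12), and the dim probe set of Msmo1 was at 0.24. Leaving out either DMSO array or either IFNg array left Sc5d as the one enzyme called.

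By its 3' probe set the LysX spike was also lower with IFNg, at 36.1 and 40.6 against 59.6 and 66.2 with DMSO. Its 5' probe set was lower as well (5.55 and 5.6 against 6.79 and 7.49). Its middle one overlapped (10.8 and 10.6 against 11.8 and 10.4). The spike's part in the rise of the 3 enzymes was not tested.

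IFNa raised 1 of the 7, Cyp51, by log2 0.50 (SE 0.118, limma adjusted p = 0.0363), where 8.93% of all genes were called higher. Its probe set 1422533_at was higher as well, at 0.66 (limma adjusted p = 0.0229). Before adjustment 4 enzymes had p under 0.05, all higher: Cyp51, Msmo1, Nsdhl and Sc5d, with log2 differences of 0.29 to 0.64. The share of all genes under that unadjusted threshold was not computed, so this count is not read as a rise of the enzymes. IFNa replicate 2 read higher than replicate 1 for Msmo1 and Nsdhl and lower for Ebp and Dhcr7. Without it none of the 7 was called (Cyp51 at 0.40, limma adjusted p = 0.0528), and without replicate 1 in its place Cyp51, Msmo1, Nsdhl and Sc5d were called higher and Ebp lower. The call for Cyp51 was lost under 12 of 23 alternatives, among them quantile normalization, array weights, fitting only the groups compared, and leaving out any 1 of the DMSO, AMN107, AMN107-IFNa or AMN107-IFNg arrays.

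In cells that had received AMN107, neither interferon changed any of the 7 enzymes by this test. Of all genes, 0.164% were called in either direction between AMN107-IFNa and AMN107 and 2.28% between AMN107-IFNg and AMN107. Before adjustment 1 of 7 had p under 0.05 with IFNa (Dhcr7, log2 -0.27) and 0 of 7 with IFNg. The share of all genes under that unadjusted threshold was not computed. For the 3 enzymes that IFNg raised without the inhibitor, the log2 difference with it was -0.32 (95% interval -0.75 to 0.11) for Msmo1, -0.22 (95% interval -0.53 to 0.09) for Nsdhl and -0.07 (95% interval -0.29 to 0.14) for Sc5d. Without the IFNa arrays, Msmo1 was called lower here.

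The difference between the IFNg responses with and without AMN107 was itself tested as an interaction. It passed for Sc5d, at -0.77 (SE 0.139, limma adjusted p = 0.0269), where 0.894% of all genes were called in this direction. Nsdhl was at -0.90 (SE 0.198, limma adjusted p = 0.0632) and Msmo1 at -1.11 (SE 0.272, limma adjusted p = 0.0939), neither called, and Hsd17b7 was at 0.08 (95% interval -0.21 to 0.36) by its main probe set and at -1.20 (limma adjusted p = 0.129) by 1417871_at. Dhcr7 was at -0.09 (95% interval -0.44 to 0.26) and Cyp51 at -0.39. Without IFNa replicate 2, an array that enters this contrast only through the shared spread, Msmo1, Nsdhl and Sc5d all passed, with limma adjusted p = 1.5e-05, 6.11e-05 and 0.00038. Leaving out any 1 of the 10 arrays of the other groups left none of the 7 called. The other 2 Sc5d probe sets were at -0.40 and -0.12 and were not called. The interaction with IFNa was called for none of the 7, where 0.197% of all genes were called in either direction. Before adjustment 5 had a limma p under 0.05 (Cyp51, Msmo1, Nsdhl, Sc5d and Dhcr7), all negative. The share of all genes under that unadjusted threshold was not computed, so this count is not read as a result. The median of all tested genes in this contrast was -0.07.

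**Figure D3:**
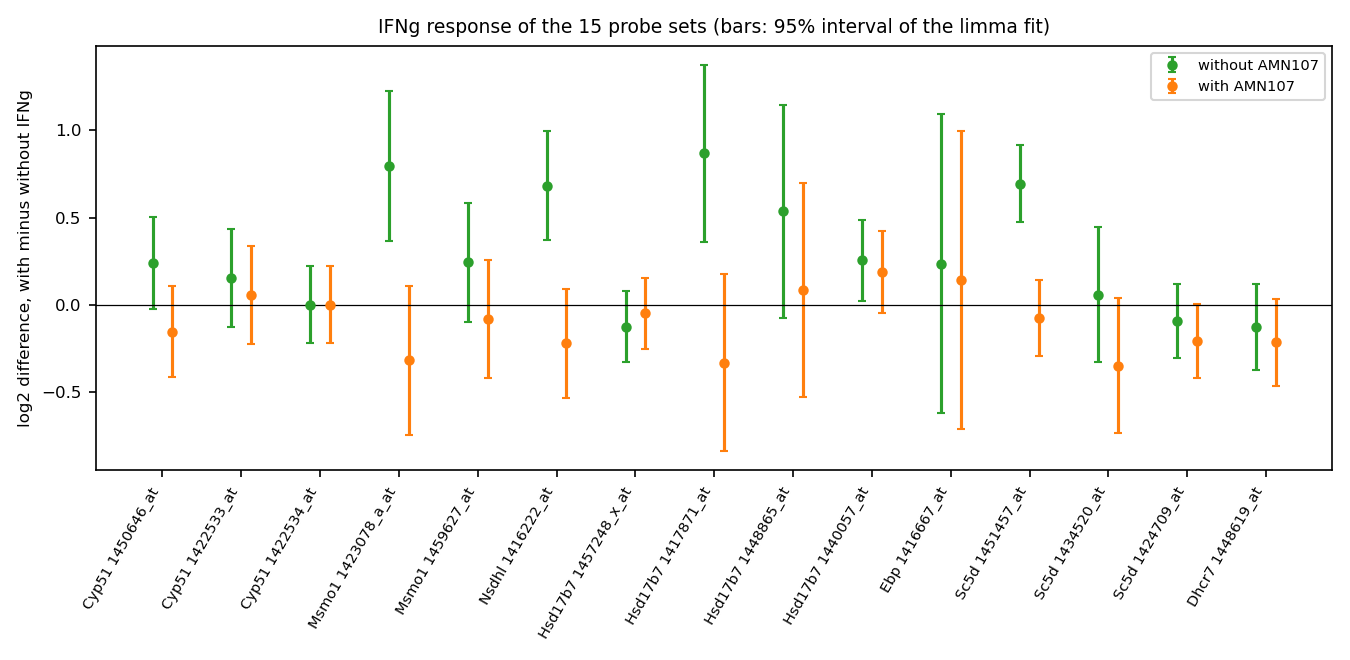
Log2 difference with minus without IFNg (vertical axis) for each of the 15 probe sets, without and with AMN107; bars are 95% intervals of the limma fit. Without the inhibitor the intervals of Msmo1 1423078_a_at, Nsdhl, Hsd17b7 1417871_at and Sc5d 1451457_at lie well above 0, with centres of 0.68 to 0.87, and with it the centres of these 4 lie at -0.07 to -0.33.

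Over the 6 AMN107 arrays Msmo1 ran from 353 to 471, Nsdhl from 193 to 248, Sc5d from 253 to 283 and Cyp51 from 104 to 125. Each enzyme except Ebp correlated with the mean of the other 6 at r 0.869 to 0.939 over the 12 arrays. Ebp was at -0.03, and at 0.847 over the 10 arrays without IFNa. The arrays of a group share their treatment, and the step between arrays with and without the inhibitor is part of each r.

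Among all 12185 other genes compared by their main probe set, Srebf2 had the profile most like the mean of the 7 enzymes (Pearson r 0.979 over 12 arrays), and it also ranked 1 over the 10 arrays without IFNa (r 0.994). Its signal was 187 and 184 with DMSO, 207 and 237 with IFNa, 236 and 217 with IFNg, and 95.7 to 109 on the 6 AMN107 arrays. Its average fall was -0.97 on the log2 scale (SE 0.0555, limma adjusted p = 1.23e-06). The next were Cyp1b1, Eid1, Mvd, Eno3, Fdft1, Car5b, H3c7, Tmem17 and Stap2, at r 0.963 to 0.979. Srebf2 was the 1 gene of these 10 that stayed among the 10 most alike without the IFNa arrays. The rest moved little, with r of 0.960 to 0.981 over those arrays, at ranks 13 to 40.

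Upstream of lanosterol the same direction was seen. Of 11 genes listed from acetyl-CoA to lanosterol, 9 were measured and tested, and on average over the 3 states 8 were lower and 0 higher with AMN107 (21% and 25.2% of all genes), with a median log2 difference of -1.26. Idi1, which isomerises isopentenyl diphosphate, fell most, by 2.55 on the log2 scale, with signals of 1297 to 1828 on the arrays without the inhibitor and 230 to 291 with it. Lss, which closes the ring to make lanosterol, fell by 1.49, and Sqle, the squalene epoxidase before it, by 1.09. By main probe sets, Mvk, at -0.22 (limma adjusted p = 0.114), was the one not called. Its probe set 1418052_at was called lower in each of the 3 states and on average, at -0.50 (limma adjusted p = 0.000361). The other 2 listed genes were not analysed here. By main probe sets, none of the 9 was called for either interferon, with or without AMN107. Probe sets of a gene disagreed here as well: with IFNg, Mvd was at 0.17 by its main probe set and 0.71 by 1417303_at, neither called. Fdft1 was at 0.04 by its main probe set, while its probe set 1448130_at was called higher, at 0.998 (limma adjusted p = 0.00107). That probe set was also called higher with IFNa, at 0.58 (limma adjusted p = 0.0317). Its AMN107 by IFNg interaction passed as well, at -1.11 (limma adjusted p = 0.0185).

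**Figure D4:**
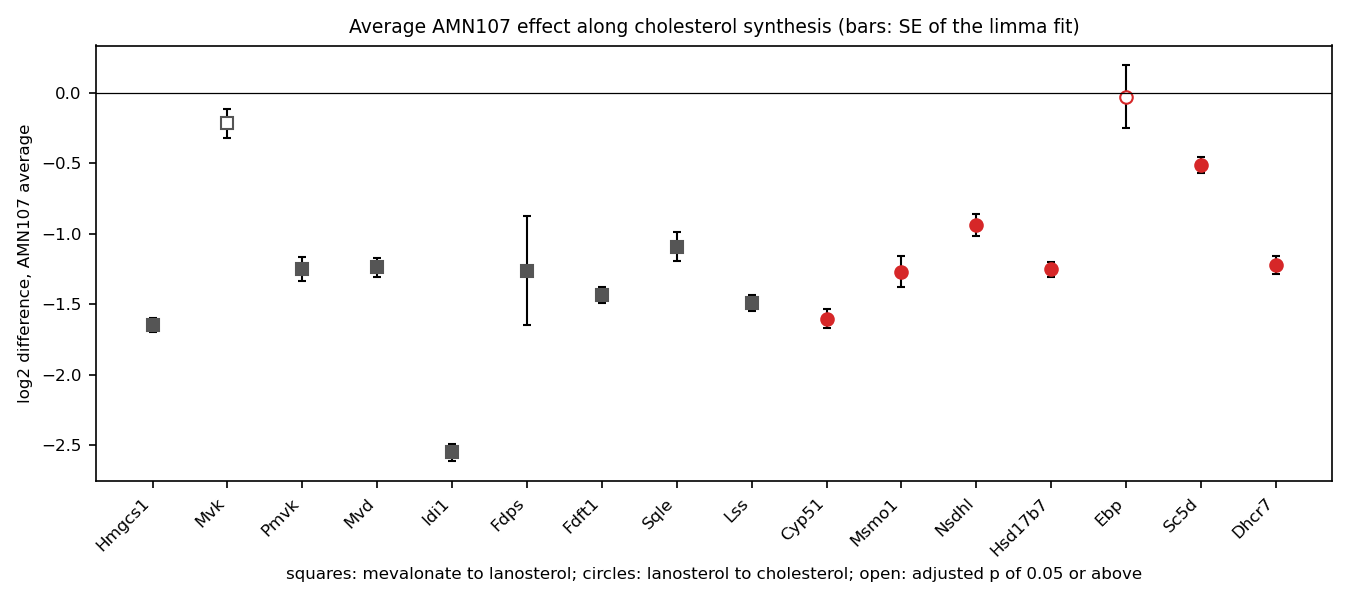
Average log2 difference with minus without AMN107 over the 3 interferon states (vertical axis) for measured genes in pathway order, by main probe set; bars are the SE of the limma fit. Of the 16 genes 14 are called lower, Idi1 is lowest at -2.55, and the open symbols mark Mvk at -0.22 and Ebp at -0.03.

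Other enzymes and electron donors of the lanosterol to cholesterol steps did not all go with the 7. Of 9 listed, 7 were tested, with 2 lower and 3 higher on average with AMN107, where 25.2% of all genes were called higher. Lbr and Tm7sf2 encode the alternative reductases that act after Cyp51. Lbr read 1353 and 1291 with DMSO and 752 and 761 with AMN107, and fell by 0.84 on average and in each of the 3 states. Tm7sf2 read 42.6 and 37.2 with DMSO and 51.3 and 54.2 with AMN107, and rose by 0.29 on average. Cyb5b, a cytochrome b5, fell by 0.47, while Cyb5r3, the reductase that feeds it (0.40), and Ebpl, a relative of Ebp reported to lack its isomerase activity (0.31), rose; Cyb5b and Ebpl were named after their values were seen. Erg28, a scaffold of the methyl-removing enzymes also named afterwards, was at 0.06 on average and was called higher with IFNg alone, at 0.38 (limma adjusted p = 0.0395). Cyb5a, another cytochrome b5 named afterwards, was lower with IFNg, at -0.50 (limma adjusted p = 0.028). The other 2 were not analysed here.

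Of 18 listed genes of sterol sensing, uptake and efflux, 12 were tested, and 4 were lower and 4 higher on average with AMN107, where 21% of all genes were lower and 25.2% higher. The lower ones were Insig1, which retains SREBP in the endoplasmic reticulum (-1.03), Srebf2 (-0.97), the sterol carrier Stard4 (-0.88) and the exporter Abcg1 (-0.66). The higher ones were Npc1, which moves cholesterol out of lysosomes (0.42), the ubiquitin ligase gene Mylip (0.29), Insig2 (0.24) and Mbtps2, a protease that releases SREBP (0.16). Insig2 was also called higher with IFNg alone, at 0.54. The 2 other probe sets of Insig2 went the other way under AMN107, at -0.76 and -0.40. Stard4, Abcg1, Mylip, Insig2 and Mbtps2 were named after their values were seen.

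Ch25h was dim on every array (9.29 to 14) and was not tested. Of 10 listed genes of fatty acid synthesis, 5 were lower and 1 higher on average, again beside 21% and 25.2% of all genes. Scd2, a fatty acid desaturase, fell most by main probe sets, by 1.82, while its other 2 probe sets were at -0.64 and -0.60, and Me1, malic enzyme, rose by 0.50. By main probe sets none of the 10 was called with IFNg alone or in its interaction with AMN107. Scd2 1415823_at was called higher with IFNg, at 0.87 (limma adjusted p = 0.00626), with an interaction of -1.29 (limma adjusted p = 0.0196). Acly 1425326_at was as well, at 0.96 (limma adjusted p = 0.00185), with an interaction of -1.13 (limma adjusted p = 0.0208). The other tested probe sets of Scd2 and Acly were called in neither. Elovl6 1417403_at, Me1 1430307_a_at and Fads2 1449325_at were also called higher with IFNg. They were at 0.42, 0.39 and 0.44 (limma adjusted p = 0.029, 0.0346 and 0.0428), and their interactions were not called. Acly, Elovl6 and Fads2 were named after their values were seen.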

How the data were processed

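The deposited table holds linear signal intensity per probe set for 12 arrays. The authors used MAS5, per the submitters' processing notes, and its version, scaling and settings are not given in the sources used here. Trimmed by 2% at each end, the array means lay between 100.4 and 113.5. Genes were taken from the platform annotation: of 45037 probe sets left after 64 controls, 34945 had 1 gene, 932 several and 9160 none.

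Values were transformed to log2(signal + 8.66), the pseudocount 8.66 being the arrays' mean 25th percentile, with no further normalization; this understates changes of dim probe sets. Probe sets entered the test when they exceeded the median of the array on 2 or more of the 12. limma 3.58.1 in R 4.3.3 fitted 1 mean per group to all 12 arrays (lmFit, eBayes with trend) and tested 10 contrasts two-sided, with Benjamini-Hochberg adjustment over 24363 probe sets and a threshold of 0.05. The fit was tested on simulated data. For genes with several probe sets the brightest by mean log2 value counted; exceptions are given. Of each gene list, the lowest and highest members by average AMN107 effect, any that passed an interaction, and a fixed set of names were to be named. The members and lists were chosen with earlier results of these data known. Replicate numbers were not taken to pair arrays: over 15 pairs of groups the correlation of deviations ran from -0.14 to 0.31, with 4 above 0.1. Promoters came from a RefSeq table of GRCm38.p6. The 25 alternative settings covered the pseudocount, normalization, filter, probe sets, array weights, arrays left out and the replicate block.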

Additional observations from a re-analysis of the deposited data

Results flagged for a closer look

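The IFNg response of Sc5d (1451457_at) differed between cells with and without AMN107 by -0.77 on the log2 scale (SE 0.139, limma adjusted p = 0.0269), and this test of the difference is why it is listed. The call was lost under 11 of 24 alternatives: quantile normalization, and leaving out any 1 of the 10 arrays of the groups other than IFNa. IFNg changed it by 0.70 without the inhibitor and by -0.07 with it, and both IFNg arrays (531 and 472) lay above both DMSO arrays (290 and 323). The other 2 probe sets of Sc5d, at -0.40 and -0.12, were not called.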

How the results depend on the processing

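Over the alternatives, 0 of 3420 single log2 differences of the 15 probe sets reversed a call. Of them 3168 kept their sign and their side of the threshold, 101 lost a call and 92 gained one with the same sign. The other 59, uncalled in the main setting, changed sign, whether or not they then passed. Ebp with IFNa was among these 59, at 0.39 in the main setting and -0.45 without IFNa replicate 2. Of the 150 differences behind all 3420, 53 were called in the main setting. With the replicate number as a block, the count of enzymes called was 5 for AMN107 without interferon, 6 with IFNa, 6 with IFNg, 1 for the IFNa response, 3 for the IFNg response and 1 for the interaction with IFNg, the same as without the block, and no call of the 7 enzymes by main probe set changed. The counts of enzymes called changed under these alternatives. Quantile normalization gave 6 for AMN107 without interferon, 0 for the IFNa response and 0 for the interaction with IFNg. Median centring gave 3 for the IFNa response, and 1 probe set per gene gave 2. A filter at the 75th percentile gave 2 for the interaction with IFNg. The enzymes called lower with AMN107 in every state kept that call under both scalings, while the share of lower genes among all genes called moved. It was 39.5% for AMN107 without interferon, 60.8% after quantile normalization and 28.3% after median centring. With IFNg it was 28.5% and, after quantile normalization, 43.4%, and on average 45.4% and 57.9%. For the IFNa response it was 25.7%, 54.2% and 7.88% in the same order, and for the IFNg response 30.7% and, after quantile normalization, 55.2%. The median of all genes in the interaction with IFNa moved from -0.07 to 0.04 and -0.16. Array weights gave 5 for AMN107 with IFNa, 0 for the IFNa response, 1 for IFNg under AMN107 (Msmo1, lower) and 3 for the interaction with IFNg. Leaving out both IFNa arrays gave 6 for AMN107 without interferon, 7 with IFNg and 7 on average. That average covered only the states without interferon and with IFNg. The same setting gave 4 for the IFNg response, 1 for IFNg under AMN107 and 3 for the interaction with IFNg. Fitting only the groups compared gave 6 for AMN107 without interferon, 1 with IFNa (Cyp51), 7 with IFNg, 0 for the IFNa response, 4 for the IFNg response, and again 1 for IFNg under AMN107 and 3 for the interaction with IFNg. The cause was not tested.

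With each array left out in turn, the count was 3 to 6 for AMN107 without interferon, 5 to 7 with IFNa, 6 to 7 with IFNg and 6 to 7 on average. It was 0 to 5 for the IFNa response, 1 to 4 for the IFNg response, 0 to 1 for IFNg under AMN107, 0 to 5 for the interaction with IFNa and 0 to 3 for that with IFNg. Without either DMSO or either AMN107 array, Cyp51, Hsd17b7 and Dhcr7 were the 3 called for AMN107 without interferon. Counting Hsd17b7 by 1417871_at, chosen after seeing the data, gave 4 for AMN107 without interferon and 4 for the IFNg response. The counts with an array left out hold both directions. Over the alternatives the average AMN107 effect on Ebp ran from -0.31 to 0.25. It was negative without IFNa replicate 2 and positive without IFNa replicate 1.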
